A study of Mus musculus with 13 samples.

Results

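The genes described here are 37 genes that encode the machinery of cell division and DNA replication, read from inguinal white adipose tissue, the fat depot under the skin of the groin. They were taken by gene symbol from a table of 54532 genes, all 37 symbols were found once each, and each was measured in 13 libraries. Every library was made from the total RNA of an individual mouse after 12 h without food. In SC_ConD, 3 mice slept normally and ate chow. In SF_ConD, 5 mice had their sleep fragmented on the same chow. In SF_HPD, 5 mice had fragmented sleep and a high-protein diet, with 50% of its energy from protein, 38% from carbohydrate and 12% from fat. No group combined normal sleep with the high-protein diet, so the effect of the diet was measured under fragmented sleep only. The sources used here do not give strain, sex or age.

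A dividing cell copies its DNA once and then separates the copies. In the S phase the MCM helicase opens the double helix, the sliding clamp PCNA holds the polymerases on it, and enzymes such as ribonucleotide reductase supply the nucleotides. In mitosis, cyclin B and the kinase CDK1 drive entry, the Aurora and Polo kinases and the spindle checkpoint control the attachment of chromosomes, and the anaphase-promoting complex then marks cyclin B and other proteins for destruction. Mature adipocytes are regarded as non-dividing, so in adipose tissue such transcripts are usually looked for in progenitors, endothelium and immune cells.

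Values are FPKM as deposited, fragments per kilobase of gene scaled to a library's depth. FPKM sums differed 5.03-fold between libraries, and reads recovered from the values came to 14815592 to 18303302 per library. Several libraries held transcripts of tissues other than fat. A set of 14 B cell and lymph node markers summed to 3.25 to 18.0 FPKM in SC_ConD, 3.15 to 2620 FPKM in SF_ConD and 3.48 to 1152 FPKM in SF_HPD. SF_ConD 1, 4 and 5 and SF_HPD 4 and 5 summed to at least 531 FPKM and are called lymphoid-rich. The 8 libraries that are not lymphoid-rich stayed at or below 36.6 FPKM. The 9 T cell markers followed the same libraries, with at least 108 FPKM in the lymphoid-rich ones and at most 12.7 FPKM elsewhere. Liver transcripts were high in SC_ConD 2 and 3, and muscle transcripts in SC_ConD 3 and SF_HPD 4. The mean log2(FPKM + 1) of 10 adipocyte markers was 4.73 in SF_HPD 2 and at least 8.20 in every other library. SC_ConD 1, SF_ConD 3 and SF_HPD 1 and 4 leaned toward long transcripts (Spearman rho with gene length, across genes, of 0.559, 0.485, 0.563 and 0.484).

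The division genes lay low in undisturbed mice and reached higher levels in most sleep-fragmented mice, on either diet, but no gene passed the test. The mean log2(FPKM + 1) of the 37 genes was 0.77, 0.83 and 0.73 in SC_ConD, 1.72, 1.08, 0.78, 1.65 and 1.35 in SF_ConD and 1.25, 0.75, 1.28, 1.43 and 1.33 in SF_HPD. In each sleep-fragmented group 4 of the 5 libraries were thus above all SC_ConD libraries, while SF_ConD 3 and SF_HPD 2 lay within the SC_ConD range. As reads scaled to a common depth (RPM), the 37 genes took 114 to 171 RPM in SC_ConD, 206 to 535 RPM in SF_ConD and 106 to 420 RPM in SF_HPD. The smallest value of the 13 was that of SF_HPD 2, and SF_ConD did not overlap SC_ConD on this scale. In bulk tissue, fewer dividing cells and less of these transcripts per cell cannot be told apart.

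**Figure D1:**
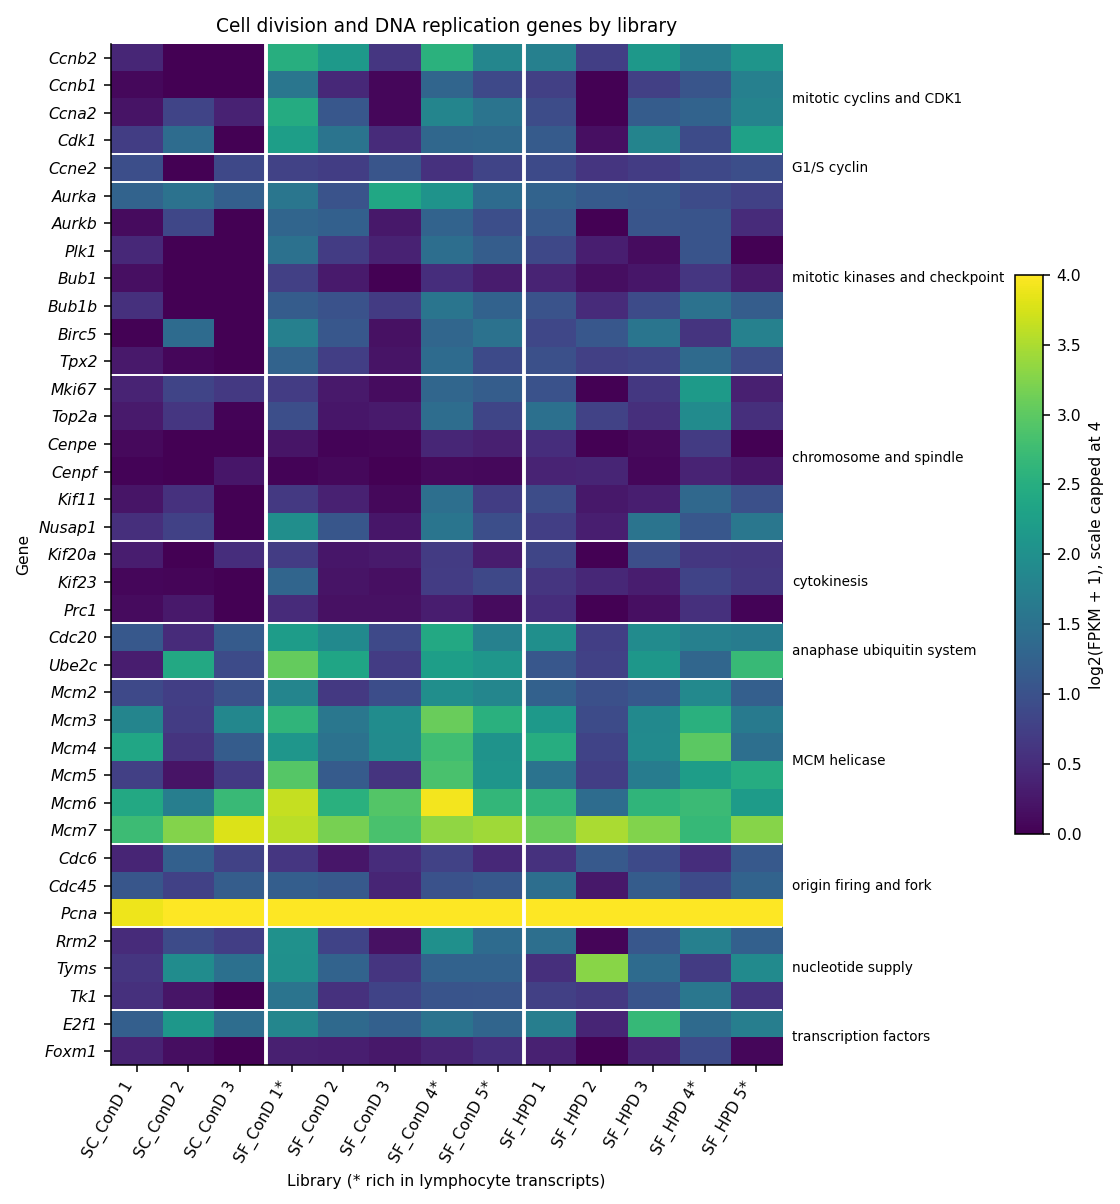
Level of each of the 37 genes (rows, grouped by role) in each of the 13 libraries (columns, split by group), as log2(FPKM + 1) on a colour scale capped at 4, with an asterisk on lymphoid-rich libraries. SF_ConD 1 and 4 and the mitotic cyclin and MCM rows are brightest among low genes, Pcna exceeds the cap in every library except SC_ConD 1, and SF_ConD 3 and SF_HPD 2 resemble the SC_ConD columns in the mitotic rows.

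Counted gene by gene, SF_ConD 1 to 5 had 29, 15, 8, 27 and 23 of the 37 genes above all SC_ConD libraries, and SF_HPD 1 to 5 had 24, 8, 21, 26 and 22. The same count over all 14421 genes that reached an FPKM of 1 in 3 libraries ran from 12.2% in SF_HPD 3 to 30.01% in SF_HPD 2. In SF_ConD 3, 8 of 37 members (21.6%) stood beside 19.2% of all genes. In SF_HPD 2 the same 21.6% of members stood beside 30.01%. Of the 37 genes, 18 were at 0 in at least 1 SC_ConD library and none in all 3. SC_ConD 3 had 16 of them at 0, SC_ConD 2 and SF_HPD 2 had 8 each, and SC_ConD 1 had none.

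In the limma fit without a filter on low values, all 37 genes were among the 29194 tested, those above 0 in any library. SF_ConD against SC_ConD asks what fragmented sleep did on chow. In that comparison 32 of the 37 log2 fold changes of FPKM + 1 were positive, with a median of 0.61 against 0.00 over all genes tested, and 8 had an unadjusted p under 0.05 in the positive direction, where 1.75% of all genes did. These 8 were Ccnb2, Bub1b, Plk1, Tpx2, Kif23, Cdc20, Mcm5 and Tk1. SF_HPD against SC_ConD sets fragmented sleep with the protein diet beside the same 3 control mice. There 34 of 37 were positive, with a median of 0.40 against 0.02, and 4 had an unadjusted p under 0.05 (Ccnb2, Bub1b, Tpx2 and Tk1; 0.791% of all genes). SF_HPD against SF_ConD asks what the diet changed under fragmented sleep. It gave 13 of 37 positive with a median of -0.08 against 0.02, 2 lower at an unadjusted p under 0.05 (Aurka and Mcm6; 1.04% of all genes) and 1 higher (Cenpf; 0.808%).

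The main test used limma on genes that reached an FPKM of 1 in 3 or more libraries. It kept 28 of the 37; Ccne2, Bub1, Cenpe, Cenpf, Kif11, Kif20a, Kif23, Prc1 and Foxm1 were too low. Of the 28, 14 were under 1 FPKM in all SC_ConD libraries and so passed only through sleep-fragmented mice. No gene of the 14421 was called at an adjusted p under 0.05 in any of the 3 comparisons (0%, 0% and 0%), members included. Limma-voom on the recovered reads also called 0. At an unadjusted p under 0.05 limma gave 828, 273 and 531 genes in SF_ConD against SC_ConD, in the comparison of the 2 diets and in SF_HPD against SC_ConD, and limma-voom gave 639, 251 and 470. Among the kept members, 7 were higher in SF_ConD than SC_ConD at that level (2.59% of genes), 5 higher in SF_HPD than SC_ConD (1.01%) and 2 lower in SF_HPD than SF_ConD (1.06%). With the replicate number as a block the 828 genes became 499 and the 5 members became 3 (Ccnb2, Bub1b and Tpx2). Without SC_ConD 1, limma called 194 and 196 genes in the 2 comparisons with SC_ConD, and 0 members. Of these genes, 189 and 193 were lower in the sleep-fragmented group. The controls left in that fit, SC_ConD 2 and 3, were the libraries high in liver transcripts. The p-values measure the spread between individual mice.

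**Figure D2:**
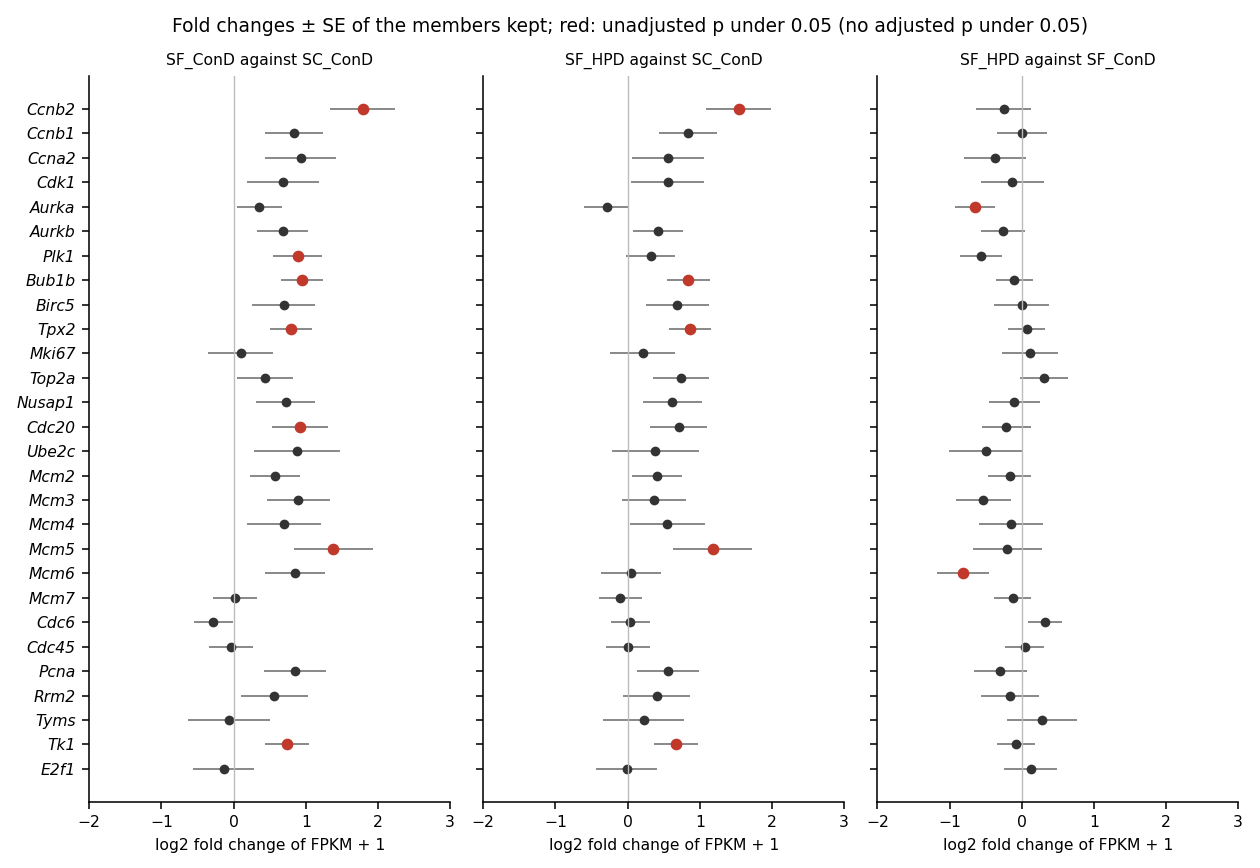
Log2 fold change of FPKM + 1 with its SE (horizontal axis) for the 28 members that passed the filter on low values (rows) in the 3 comparisons (panels), in red where the unadjusted p was under 0.05. Ccnb2 is farthest to the right in both comparisons with SC_ConD, at 1.79 and 1.54, and Mcm6 and Aurka are the red points on the left of SF_HPD against SF_ConD, at -0.82 and -0.65.

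The B-type cyclins, which activate CDK1 at the entry to mitosis, stood at or near 0 in undisturbed mice. Ccnb2 (ENSMUSG00000032218, chromosome 9, 70407692 to 70421547, minus strand) was at 0.349, 0 and 0 FPKM in SC_ConD, 4.70, 3.41, 0.546, 4.85 and 2.56 FPKM in SF_ConD and 2.36, 0.679, 3.40, 2.23 and 3.23 FPKM in SF_HPD. Every sleep-fragmented library was above every SC_ConD library, and the lowest of each group was the one also low in the mean of the 37 genes. Its means were 0.116 ± 0.201 in SC_ConD (n = 3), 3.21 ± 1.77 in SF_ConD (n = 5) and 2.38 ± 1.08 in SF_HPD (n = 5), in FPKM with the SD. The log2 fold change was 1.79 (SE 0.45) in SF_ConD against SC_ConD, with an adjusted p of 0.716, and 1.54 (SE 0.45) in SF_HPD against SC_ConD, with an adjusted p of 0.510 (limma, Benjamini-Hochberg). Both comparisons use the same 3 control mice, whose libraries held 9, 0 and 0 reads of the gene. Ccnb2 was the one member called under any alternative, at an adjusted p of 0.0495 in SF_ConD against SC_ConD without the 4 libraries that leaned toward long transcripts. That setting was chosen after seeing the data. It left out SC_ConD 1, the only control library with reads of the gene, and SF_ConD 3, the lowest of SF_ConD. The remaining controls, SC_ConD 2 and 3, were both at 0 FPKM. Over all alternatives in SF_ConD against SC_ConD the adjusted p of Ccnb2 ran from 0.0495 to 1 and the fold change from 1.24 to 5.19. A pseudogene, Ccnb2-ps, was listed at 0.594, 0.281 and 0 FPKM in SC_ConD and at 0 to 1.31 FPKM elsewhere, and reads of near-identical copies may be split between them.

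Ccnb1 (ENSMUSG00000041431, chromosome 13, 100778650 to 100786570, minus strand), its close relative, was at 0.0563, 0 and 0 in the SC_ConD libraries, 1.97, 0.381, 0.0496, 1.47 and 0.846 in SF_ConD and 0.688, 0, 0.692, 1.09 and 2.34 in SF_HPD, in FPKM. Both groups overlapped SC_ConD through SF_ConD 3 and SF_HPD 2, and the 3 SC_ConD libraries held 4, 0 and 0 reads. The log2 fold changes were 0.83 (SE 0.40) and 0.84 (SE 0.40) against SC_ConD (adjusted p = 0.872 and 1). Ccna2, cyclin A2 of S phase and early mitosis, ranged over 0 to 4.53 FPKM in the 13 libraries and Cdk1, the mitotic kinase itself, over 0 to 3.86 FPKM. In both genes SF_ConD 3 and SF_HPD 2 lay below 0.5 FPKM, and the highest library was SF_ConD 1 for Ccna2 and SF_HPD 5 for Cdk1. Ccne2, a cyclin of the passage from G1 to S phase, stayed within 0 to 1.08 FPKM and was at 0 in SC_ConD 2 only.

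**Figure D3:**
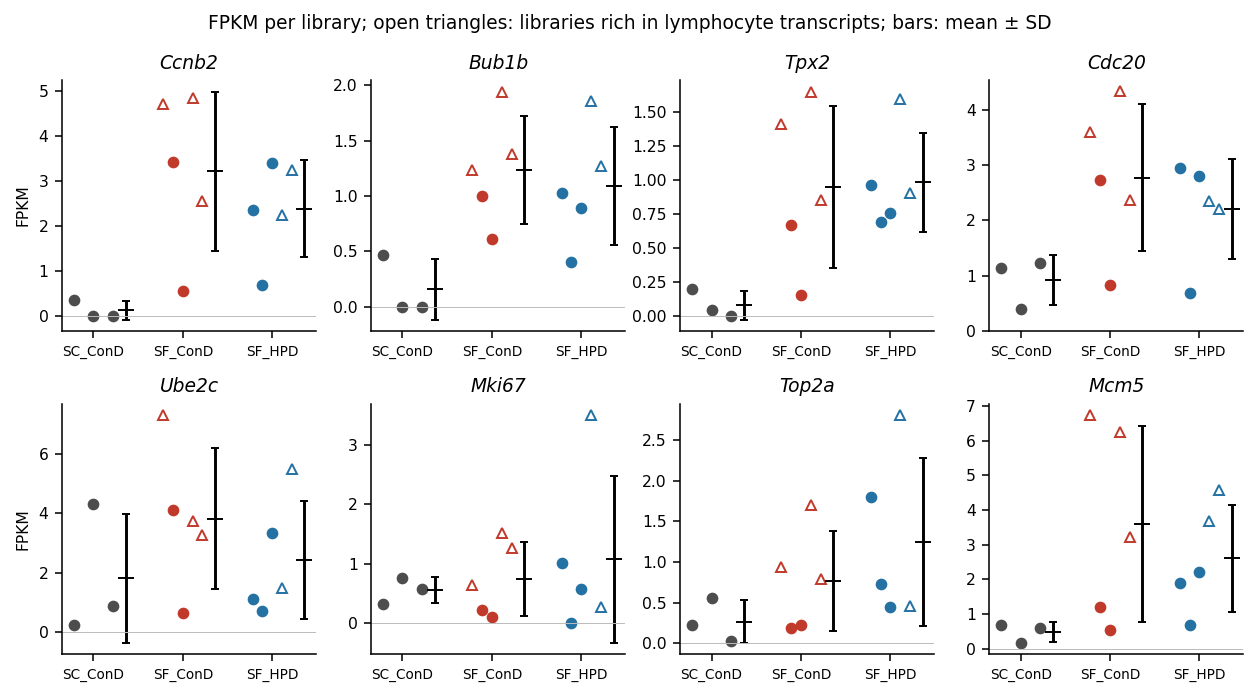
FPKM of 8 of the genes (panels) in each library by group, with open triangles for lymphoid-rich libraries and black bars for the group mean ± SD. Ccnb2 shows no overlap between SC_ConD and either sleep-fragmented group, while Mki67 and Top2a have their highest point in 1 library, SF_HPD 4, at 3.51 and 2.81 FPKM.

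Promoters of 4 of these genes are printed to show how the motifs searched in all members lie in them. Windows run from 250 bases before to 50 bases after the transcript start, 5′ to 3′ on the gene's strand, from RefSeq on GRCm38.p6. Capitals mark the CHR (TTTGAA or TTTAAA), the CCAAT box and the E2F motif (GCGGGAA or TTTGGCGC), each in either orientation.
Ccnb2, chr9:70421505-70421804, minus strand: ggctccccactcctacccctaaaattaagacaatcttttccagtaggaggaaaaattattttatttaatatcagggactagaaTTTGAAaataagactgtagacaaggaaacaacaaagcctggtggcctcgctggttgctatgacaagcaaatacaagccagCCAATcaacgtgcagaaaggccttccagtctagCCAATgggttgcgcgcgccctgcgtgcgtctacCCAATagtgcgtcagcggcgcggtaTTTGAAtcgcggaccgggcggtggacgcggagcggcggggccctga
Ccnb1, chr13:100786437-100786736, minus strand: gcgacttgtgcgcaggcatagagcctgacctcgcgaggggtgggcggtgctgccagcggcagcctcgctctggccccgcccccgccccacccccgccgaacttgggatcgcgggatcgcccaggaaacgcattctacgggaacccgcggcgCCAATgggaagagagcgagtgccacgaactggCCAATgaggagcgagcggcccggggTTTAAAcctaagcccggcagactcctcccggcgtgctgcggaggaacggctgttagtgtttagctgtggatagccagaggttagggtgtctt
Bub1b, chr2:118597961-118598260, plus strand: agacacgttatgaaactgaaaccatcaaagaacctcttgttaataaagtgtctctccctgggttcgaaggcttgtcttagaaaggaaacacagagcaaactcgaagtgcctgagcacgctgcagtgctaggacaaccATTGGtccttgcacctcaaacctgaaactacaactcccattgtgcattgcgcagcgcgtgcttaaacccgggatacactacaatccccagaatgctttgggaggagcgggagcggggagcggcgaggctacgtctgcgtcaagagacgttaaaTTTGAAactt
Mcm5, chr8:75109259-75109558, plus strand: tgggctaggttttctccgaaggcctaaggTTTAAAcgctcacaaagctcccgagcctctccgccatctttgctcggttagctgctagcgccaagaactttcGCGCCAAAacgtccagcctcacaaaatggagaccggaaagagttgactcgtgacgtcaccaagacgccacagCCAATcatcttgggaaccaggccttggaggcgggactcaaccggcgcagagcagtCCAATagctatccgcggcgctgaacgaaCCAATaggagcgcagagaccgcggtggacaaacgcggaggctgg
The CHR (cell cycle genes homology region) and the CCAAT box are the known elements of promoters active in G2 and mitosis, and the E2F site that of promoters active at the start of S phase. The Ccnb2 window held 2 CHR and 3 CCAAT matches, Ccnb1 1 and 2, Bub1b 1 and 1, and Mcm5 1 CHR, 3 CCAAT and 1 E2F. Matches were not particular to the genes described so far, since Mki67 held 2 CHR and 3 CCAAT matches, Aurka, Cdc45 and Cenpf 2 and 2 each, and Tk1 1 CHR and no CCAAT box.

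RefSeq windows matched 30 of the 37 genes, in 32 windows because Prc1 and Mcm7 have 2 each. A CHR stood in 22 of the 32 (68.8%), against 27.6% of all 32851 windows of the table. A CCAAT box stood in 26 (81.2%), against 37.4%, and both together in 20 (62.5%), against 10.7%. An E2F motif stood in 6 (18.8%), against 5.06%. At least 2 CCAAT matches stood in 15 windows (46.9%), against 11.7%. The E2F matches were all in genes of replication (Mcm3, Mcm5, Mcm6, Mcm7 and Cdc6). No motif of the 3 was found in the windows of Nusap1, Tyms and E2f1, which says only that these letters are not there. The E2f1 window lay wholly inside the gene as listed, downstream of its listed start, and so did the windows of Mcm7 and Cdc6. For E2f1, Mcm7 and Cdc6 the sequence at the listed gene start was thus not searched. The members' windows were richer in G and C (median 58.4%, against 52.7%), and matches are a description of sequence, not of binding.

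**Figure D4:**
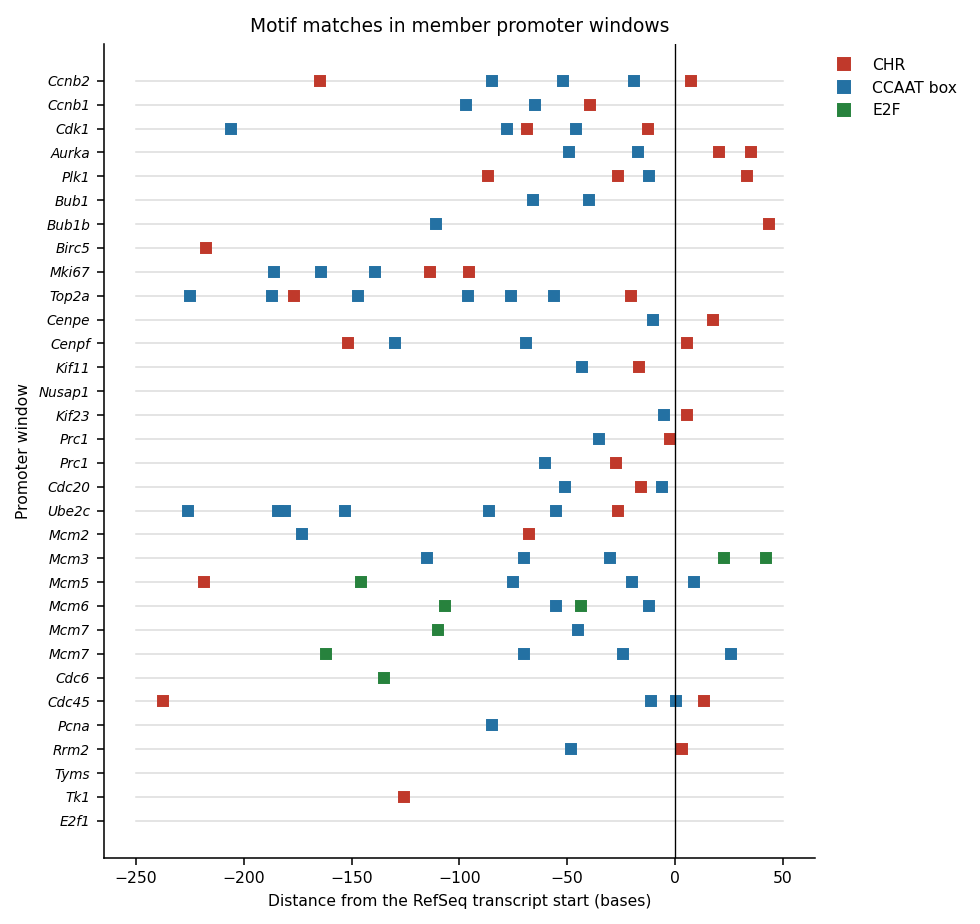
Position of each motif match (squares) relative to the RefSeq transcript start (horizontal axis, bases) in the 32 windows (rows). The windows of E2f1, Mcm7 and Cdc6 lie inside the genes as listed. CCAAT matches (blue) lie mostly upstream of the start, CHR matches (red) on both sides of it, and E2F matches (green) occur in MCM and Cdc6 windows only.

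Among the kept mitotic kinases and checkpoint genes, Bub1b and Tpx2 had the smallest unadjusted p in SF_ConD against SC_ConD (0.0067 and 0.018, limma). Plk1 was close to Tpx2, at 0.021. Bub1b (ENSMUSG00000040084, chromosome 2, 118598211 to 118641591, plus strand) encodes the checkpoint protein BUBR1, which delays anaphase until chromosomes are attached. It was at 0.472, 0 and 0 FPKM in SC_ConD, 1.24, 1.003, 0.611, 1.94 and 1.38 FPKM in SF_ConD and 1.03, 0.405, 0.894, 1.86 and 1.27 FPKM in SF_HPD. SF_ConD lay wholly above SC_ConD, and SF_HPD did except for SF_HPD 2. Its means were 0.157 ± 0.272 in SC_ConD (n = 3), 1.24 ± 0.492 in SF_ConD (n = 5) and 1.09 ± 0.532 in SF_HPD (n = 5), in FPKM with the SD, and the log2 fold changes against SC_ConD were 0.95 (SE 0.30) in SF_ConD and 0.84 (SE 0.30) in SF_HPD (adjusted p = 0.716 and 0.882, limma). The 34 reads in SC_ConD 1 were the only ones in that group.

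Tpx2 (ENSMUSG00000027469, chromosome 2, 152847964 to 152895321, plus strand), which activates Aurora A on the spindle, was at 0.203, 0.0460 and 0 in the SC_ConD libraries, 1.41, 0.673, 0.156, 1.65 and 0.856 in SF_ConD and 0.961, 0.692, 0.760, 1.60 and 0.906 in SF_HPD, in FPKM. SF_HPD lay wholly above SC_ConD, whereas SF_ConD 3 lay between SC_ConD 1 and SC_ConD 2. The fold changes were 0.79 (SE 0.29) in SF_ConD and 0.86 (SE 0.29) in SF_HPD against SC_ConD (adjusted p = 0.805 and 0.815). Plk1, the Polo kinase of spindle assembly, ranged over 0 to 1.80 FPKM. Its log2 fold change was 0.89 (SE 0.34) in SF_ConD against SC_ConD and 0.32 (SE 0.34) in SF_HPD against SC_ConD, with SF_HPD 5 at 0 and SF_HPD 3 at 0.0965 FPKM. Aurkb, the kinase of the chromosomal passenger complex, and Birc5, its subunit survivin, ranged over 0 to 1.46 FPKM and 0 to 2.37 FPKM, and SC_ConD 2 held 1.65 FPKM of Birc5. Bub1, another checkpoint kinase, reached at most 0.698 FPKM.

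Aurka, the Aurora A kinase of centrosomes, did not share this pattern. It was at 1.41, 1.83 and 1.32 FPKM in SC_ConD, 1.96, 1.03, 4.21, 3.17 and 1.65 FPKM in SF_ConD and 1.42, 1.19, 1.13, 0.893 and 0.717 FPKM in SF_HPD. SC_ConD was within the SF_ConD range, the highest library was SF_ConD 3, which was low in most other members, and the fold change of SF_HPD against SF_ConD was -0.65 (SE 0.27) (adjusted p = 1, limma).

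The best known proliferation marker, Mki67, did not separate the groups. Mki67 (ENSMUSG00000031004, chromosome 7, 135689784 to 135716361, minus strand), which coats mitotic chromosomes, was at 0.324, 0.760 and 0.577 in the SC_ConD libraries, 0.644, 0.206, 0.0987, 1.51 and 1.26 in SF_ConD and 1.01, 0, 0.564, 3.51 and 0.271 in SF_HPD, in FPKM. The 3 SC_ConD libraries lay inside the range of both other groups, SF_HPD 2 had no read, and SF_HPD 4 alone had 610 reads. Its log2 fold changes were 0.10 (SE 0.45), 0.21 (SE 0.45) and 0.11 (SE 0.39) in SF_ConD and SF_HPD against SC_ConD and in SF_HPD against SF_ConD, and their signs changed under 6 or 7 of the 27 alternatives. Top2a (ENSMUSG00000020914, chromosome 11, 98992943 to 99024189, minus strand), the topoisomerase that untangles sister chromatids, was at 0.217, 0.549 and 0.0293 FPKM in SC_ConD, 0.938, 0.186, 0.226, 1.70 and 0.791 FPKM in SF_ConD and 1.80, 0.731, 0.447, 2.81 and 0.459 FPKM in SF_HPD. SF_HPD 1 and SF_HPD 4 were highest and also leaned toward long transcripts, while SF_ConD 2 and 3 and SF_HPD 3 and 5 lay inside the SC_ConD range. The fold changes against SC_ConD were 0.43 (SE 0.38) in SF_ConD and 0.74 (SE 0.38) in SF_HPD (adjusted p = 1 and 1).

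The 5 members longer than 8 kb, Mki67, Top2a, Cenpe, Cenpf and Prc1, were highest in SF_HPD 4, except Cenpf. Cenpe, a kinetochore motor, was highest in SF_HPD 4 and SF_HPD 1 at 0.619 and 0.440 FPKM, and Prc1, which bundles microtubules of the midzone, was highest in the same 2 libraries at 0.472 and 0.433 FPKM. Cenpf, a protein of the outer kinetochore and the longest member at 15433 bases, was at 0.0308, 0.00698 and 0.177 FPKM in SC_ConD, 0.0300, 0.0651, 0.0102, 0.0737 and 0.0564 FPKM in SF_ConD and 0.316, 0.329, 0.0447, 0.312 and 0.183 FPKM in SF_HPD. It was highest in SF_HPD 1, 2 and 4, at no more than 104 reads. Of these 5 members, only Mki67 and Top2a passed the filter and entered the fits that address the length trend. Without the 4 libraries that lean toward long transcripts, their fold changes in SF_HPD against SC_ConD were -0.41 and 0.29. With all libraries they were 0.21 and 0.74. That setting also leaves out SF_HPD 4, the highest library of both. For Cenpe, Cenpf and Prc1 the part of the length trend was not tested.

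Of the other spindle genes, Nusap1 (ENSMUSG00000027306, chromosome 2, 119618298 to 119651244, plus strand), which bundles microtubules near chromosomes, was at 0.453, 0.716 and 0 in the SC_ConD libraries, 2.93, 1.11, 0.180, 1.94 and 0.943 in SF_ConD and 0.669, 0.256, 1.90, 1.13 and 2.01 in SF_HPD, in FPKM. SF_ConD 3 and SF_HPD 1 and 2 lay inside the SC_ConD range and the other sleep-fragmented libraries above it. The fold changes against SC_ConD were 0.72 (SE 0.41) in SF_ConD and 0.62 (SE 0.41) in SF_HPD (adjusted p = 0.907 and 1). Kif11, the motor that pushes spindle poles apart, ranged over 0 to 1.77 FPKM. The cytokinesis motors Kif20a and Kif23 ranged over 0 to 0.937 FPKM and 0 to 1.48 FPKM. Kif23 was below 0.06 FPKM in SC_ConD, at 7, 3 and 0 reads, and above it in all 10 sleep-fragmented libraries.

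Cdc20 and Ube2c belong to the anaphase ubiquitin system. Cdc20 (ENSMUSG00000006398, chromosome 4, 118432901 to 118437352, minus strand), the activator of the anaphase-promoting complex, was at 1.14, 0.403 and 1.22 FPKM in SC_ConD, 3.61, 2.73, 0.839, 4.34 and 2.38 FPKM in SF_ConD and 2.96, 0.680, 2.81, 2.36 and 2.21 FPKM in SF_HPD. In each sleep-fragmented group 4 libraries were above SC_ConD, and SF_ConD 3 and SF_HPD 2 were inside its range. The fold changes against SC_ConD were 0.92 (SE 0.39) in SF_ConD and 0.71 (SE 0.39) in SF_HPD (adjusted p = 0.861 and 1). Ube2c (ENSMUSG00000001403, chromosome 2, 164769898 to 164778822, plus strand), the ubiquitin-conjugating enzyme of that complex, was at 0.251, 4.31 and 0.880 in the SC_ConD libraries, 7.32, 4.12, 0.643, 3.73 and 3.28 in SF_ConD and 1.12, 0.711, 3.33, 1.49 and 5.51 in SF_HPD, in FPKM. SC_ConD 2 exceeded 8 of the 10 sleep-fragmented libraries, so the groups overlapped widely, and the fold changes were 0.88 (SE 0.60) and 0.38 (SE 0.60) against SC_ConD (adjusted p = 0.953 and 1). Without SC_ConD 2 the first was 1.48 and without SC_ConD 1 it was 0.43.

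The MCM helicase subunits differed among themselves. Mcm5 (ENSMUSG00000005410, chromosome 8, 75109569 to 75128439, plus strand) was at 0.684, 0.162 and 0.595 FPKM in SC_ConD, 6.73, 1.21, 0.524, 6.26 and 3.22 FPKM in SF_ConD and 1.88, 0.665, 2.21, 3.67 and 4.57 FPKM in SF_HPD. SF_ConD 3 and SF_HPD 2 lay inside the SC_ConD range, the other 8 sleep-fragmented libraries above it, and the 5 lymphoid-rich libraries were the highest. Its means were 0.480 ± 0.279 in SC_ConD (n = 3), 3.59 ± 2.84 in SF_ConD (n = 5) and 2.60 ± 1.54 in SF_HPD (n = 5), in FPKM with the SD, and the fold changes against SC_ConD were 1.38 (SE 0.55) in SF_ConD and 1.18 (SE 0.55) in SF_HPD (adjusted p = 0.852 and 1). Without the lymphoid-rich libraries these became 0.33 (SE 0.42) and 0.77 (SE 0.37).

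Mcm6 (ENSMUSG00000026355, chromosome 1, 128331590 to 128359664, minus strand) was at 4.31, 2.28 and 5.54 in the SC_ConD libraries, 11.5, 4.80, 6.59, 14.2 and 5.26 in SF_ConD and 5.22, 1.66, 5.15, 5.64 and 3.59 in SF_HPD, in FPKM. SF_ConD 1 and 4 stood far above the other 11 libraries, SF_HPD 2 was lowest, and the groups overlapped. The fold change was 0.86 (SE 0.41) in SF_ConD against SC_ConD, 0.04 (SE 0.41) in SF_HPD against SC_ConD and -0.82 (SE 0.36) in SF_HPD against SF_ConD (adjusted p = 0.872, 1 and 1). The last of these was negative in all 27 alternatives, between -1.11 and -0.51. Mcm2, Mcm3 and Mcm4 ranged over 0.578 to 2.94 FPKM, 0.631 to 7.53 FPKM and 0.510 to 6.93 FPKM, with fold changes of 0.57, 0.90 and 0.70 in SF_ConD against SC_ConD. Mcm7 was at 9.0 ± 3.60 FPKM (SD, n = 3) in SC_ConD and 8.85 ± 1.82 FPKM (SD, n = 5) in SF_ConD, a fold change of 0.02 (SE 0.30). It overlaps Cops6, a gene on the other strand listed at a mean of 98.4 FPKM, and the sources used here do not give the strand setting of the counting.

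At the fork, Pcna was the most abundant member per length in every library. Pcna (ENSMUSG00000027342, chromosome 2, 132249162 to 132253314, minus strand), the sliding clamp, was at 13.9, 16.6 and 19.8 FPKM in SC_ConD, 60.1, 23.8, 16.2, 40.0 and 29.6 FPKM in SF_ConD and 16.6, 22.3, 31.0, 19.5 and 43.0 FPKM in SF_HPD. Of the 10 sleep-fragmented libraries, 7 were above SC_ConD, and SF_ConD 3, SF_HPD 1 and SF_HPD 4 lay inside its range. The fold changes against SC_ConD were 0.85 (SE 0.43) in SF_ConD and 0.56 (SE 0.43) in SF_HPD (adjusted p = 0.875 and 1). Cdc6, which loads the MCM helicase, had a fold change of -0.28 (SE 0.27) and Cdc45, a helicase partner, of -0.04 (SE 0.31) in SF_ConD against SC_ConD, and their highest libraries were SC_ConD 2 and SF_HPD 1.

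Among nucleotide enzymes, Tk1 (ENSMUSG00000025574, chromosome 11, 117815526 to 117826092, minus strand), thymidine kinase, was at 0.468, 0.166 and 0 in the SC_ConD libraries, 1.91, 0.490, 0.744, 1.05 and 1.09 in SF_ConD and 0.685, 0.578, 1.05, 2.01 and 0.505 in SF_HPD, in FPKM. Every sleep-fragmented library was above every SC_ConD library, though SF_ConD 2 and SF_HPD 5 by little. The fold changes were 0.74 (SE 0.31) in SF_ConD and 0.67 (SE 0.31) in SF_HPD against SC_ConD (adjusted p = 0.861 and 1). Rrm2, the regulated subunit of ribonucleotide reductase, ranged over 0.0417 to 3.08 FPKM, highest in SF_ConD 1 and 4. Tyms, thymidylate synthase, went its own way with 8.75 FPKM in SF_HPD 2, its highest library and the one where most other members were low.

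Of the transcription factors known to drive these genes, E2f1 did not show their pattern and Foxm1 was too low to tell. E2f1 (ENSMUSG00000027490, chromosome 2, 154559407 to 154569892, minus strand), an activator of the S phase program, was at 1.32, 3.35 and 1.70 FPKM in SC_ConD, 2.58, 1.57, 1.34, 1.88 and 1.46 FPKM in SF_ConD and 2.26, 0.330, 5.38, 1.60 and 2.27 FPKM in SF_HPD. The groups overlapped fully, SF_HPD 3 was highest and SF_HPD 2 lowest, and the fold changes were -0.14 (SE 0.42) and -0.01 (SE 0.42) against SC_ConD (adjusted p = 1 and 1). The sign of the first turned under 3 of 27 alternatives and that of the second under 9. Foxm1, which drives genes of G2 and mitosis, stayed within 0 to 0.856 FPKM and at no more than 85 reads. Its means were 0.141 in SC_ConD, 0.298 in SF_ConD and 0.305 in SF_HPD, in FPKM. The fold changes of Foxm1 against SC_ConD, in the fit without a filter, were 0.19 (SE 0.20) in SF_ConD and 0.17 (SE 0.20) in SF_HPD.

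Across the 37 genes, 4 were above all SC_ConD libraries in all 5 SF_ConD libraries (Ccnb2, Bub1b, Kif23 and Tk1). Of these the filter kept 3, and 1.68% of all kept genes showed the same. In SF_HPD against SC_ConD the 4 were Ccnb2, Tpx2, Kif23 and Tk1, of which 3 were kept, beside 0.791% of genes. The kept ones, Ccnb2, Bub1b, Tpx2 and Tk1, were under 1 FPKM in every SC_ConD library. They passed the filter only through sleep-fragmented mice, so their separation from SC_ConD was partly set by the filter. Between SF_HPD and SF_ConD no member was without overlap in either direction, beside 0.229% of genes higher and 0.229% lower in SF_HPD. The comparison of the 2 diets thus found neither a call nor a separated gene among the 37, with a median SE of 0.36 on the log2 scale, and this does not show that the diets act alike.

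By mean log2(FPKM + 1), the 5 libraries with the most lymphocyte transcripts were also those with the highest division genes. As reads this order did not hold, since SF_HPD 1 and 3, at 337 and 326 RPM, lay above the lymphoid-rich SF_ConD 5 and SF_HPD 5, at 245 and 235 RPM. Of the 37 genes, 28 had their highest value in 1 of the 5 lymphoid-rich libraries, 10 of them in SF_ConD 1, 8 in SF_ConD 4 and 7 in SF_HPD 4. The lymphoid-poor libraries SF_ConD 2, SF_HPD 1 and SF_HPD 3, with B cell marker means of 1.32, 0.40 and 0.77, had mean member levels of 1.08, 1.25 and 1.28. These were above the 0.73 to 0.83 of SC_ConD. The other lymphoid-poor sleep-fragmented libraries, SF_ConD 3 and SF_HPD 2, lay within that range at 0.78 and 0.75. Over all 37 genes, the median difference between group means of log2(FPKM + 1) was 0.61 in SF_ConD against SC_ConD, 0.40 in SF_HPD against SC_ConD and -0.08 in SF_HPD against SF_ConD. Without the 5 lymphoid-rich libraries it was 0.16, 0.24 and 0.19, with 25, 33 and 28 of 37 positive, so the sign between the diets changed. With the B cell marker mean as a covariate, the medians of the 28 kept members were 0.26, 0.23 and 0.06, against 0.71, 0.49 and -0.14 without it. The means of the B cell list were high in 3 of 5 SF_ConD and 2 of 5 SF_HPD libraries and in none of SC_ConD, so lymphoid content and group cannot be told apart in these mice as a whole. Ccnb2 without the lymphoid-rich libraries had fold changes of 1.24 (SE 0.58) in SF_ConD and 1.40 (SE 0.52) in SF_HPD against SC_ConD. That fit rests on SF_ConD 2 and 3 and SF_HPD 1 to 3, and it called 0 members in either comparison. In SF_ConD against SC_ConD it gave 0 kept members, Ccnb2 included, an unadjusted p under 0.05 (limma). In SF_HPD against SC_ConD 2 kept members were higher at that level, as were 78 of 14421 genes.

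**Figure D5:**
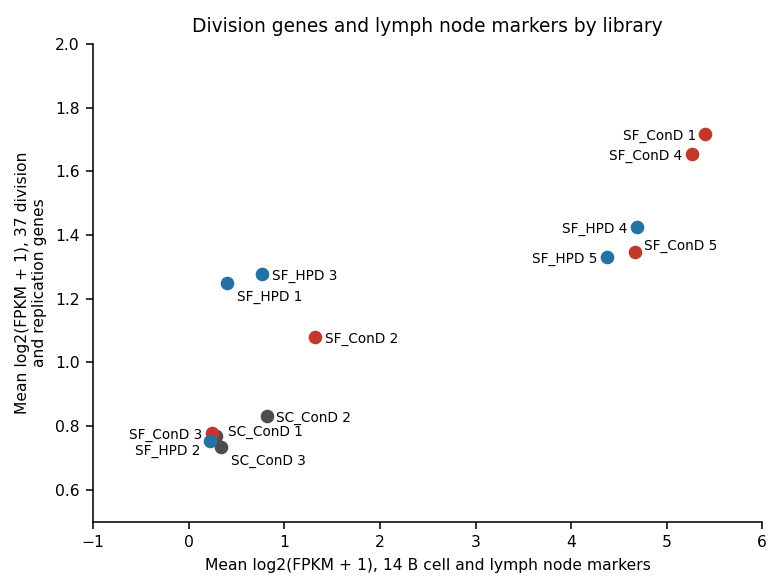
Mean log2(FPKM + 1) of the 37 genes (vertical axis) against that of 14 B cell and lymph node markers (horizontal axis) per library, coloured by group (grey SC_ConD, red SF_ConD, blue SF_HPD). The 5 lymphoid-rich libraries lie at the right, at 1.33 to 1.72, and SF_HPD 1 and 3 lie at the left, at 1.25 and 1.28, above the SC_ConD libraries. SF_ConD 2 lies above them too, at 1.08, while SF_ConD 3 and SF_HPD 2, at 0.78 and 0.75, lie level with the SC_ConD libraries.

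Markers of germinal centres, where B cells divide, had mean log2 levels of 0.50 to 0.76 in SC_ConD, 0.47 to 1.23 in SF_ConD and 0.23 to 0.94 in SF_HPD. The 6 genes of that list did not follow the lymphoid-rich libraries throughout, and their summed FPKM was highest in SF_ConD 3. Macrophage markers had mean log2 levels of 3.24 to 4.15 in SC_ConD, 2.47 to 4.32 in SF_ConD and 2.71 to 4.52 in SF_HPD. Markers of stromal progenitors, the dividing precursors of adipocytes, were at 4.21 to 5.20, 3.54 to 4.51 and 4.51 to 5.22, and endothelial markers at 2.70 to 5.11, 2.83 to 4.53 and 1.03 to 4.90. In each of these 4 lists the groups overlapped, for stromal progenitors in SF_ConD and SF_HPD only by little (up to 4.513 and from 4.507). Between the diets 4 of the 6 stromal markers had positive fold changes in SF_HPD against SF_ConD. In that comparison 2 were higher at an unadjusted p under 0.05 (limma), as were 120 of 14421 genes, and 0 were called. The part of any of these cell types in the division genes was not tested.

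Further genes of the same processes were read from 4 other lists. Among 48 other mitosis genes 23 were kept, and 20 of the 23 had positive fold changes in SF_ConD against SC_ConD, 10 in SF_HPD against SF_ConD and 20 in SF_HPD against SC_ConD. Among 44 other replication genes 28 were kept, with 23, 7 and 23 positive. Of 22 genes of the G1 phase and the E2F network 18 were kept, with 13, 8 and 14 positive. Over all genes tested, 47.4%, 51.9% and 51.8% were positive in these comparisons, in the same order. As for the members, low genes of these lists could pass the filter through sleep-fragmented libraries alone. No gene of these lists was called in any comparison, and at an unadjusted p under 0.05 the lists held 1, 3 and 2 higher in SF_ConD than SC_ConD and 2, 2 and 0 higher in SF_HPD than SC_ConD, where 2.59% and 1.01% of all genes were. Hmgb2, a chromatin protein of dividing cells, had the largest of these, 1.87 (SE 0.67), and its highest libraries were SF_ConD 1, SF_HPD 5 and SF_ConD 4, all lymphoid-rich, with 42.0, 30.5 and 25.4 FPKM. Pbk, a mitotic kinase, and Cdca3 had 1.12 (SE 0.44) and 1.19 (SE 0.50) in SF_HPD against SC_ConD. Uhrf1, which keeps DNA methylation at the fork, had 0.90 (SE 0.38) and 0.97 (SE 0.38) against SC_ConD, Rrm1, the partner of Rrm2, had 0.74 (SE 0.32) in SF_HPD, and Cdt1, a loader of the MCM helicase, had 1.03 (SE 0.45) in SF_ConD. Myc, a growth factor response gene, had 0.98 (SE 0.39) and Cdk2, the kinase of S phase entry, 1.03 (SE 0.42) in SF_ConD against SC_ConD. Cdc25a, a phosphatase that activates CDKs, had 0.83 (SE 0.41) in SF_HPD against SC_ConD.

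Inhibitors of the cell cycle lay in both directions. All 16 listed were kept, with 11, 7 and 12 positive in the same 3 comparisons (47.4%, 51.9% and 51.8% of all genes), and 0 called. Gas1, a growth arrest gene, was at 17.6, 18.1 and 23.5 FPKM in SC_ConD, 6.11, 11.5, 11.9, 7.05 and 7.08 FPKM in SF_ConD and 13.8, 6.13, 19.5, 8.96 and 7.09 FPKM in SF_HPD. SC_ConD lay wholly above SF_ConD, and SF_HPD 3 overlapped it. Cdkn1c, the CDK inhibitor p57, was at 13.3, 21.9 and 27.8 FPKM in SC_ConD and at 5.43 to 11.2 FPKM in SF_ConD, also without overlap, as were 1.92% of all kept genes in that direction. Their fold changes in SF_ConD against SC_ConD were -1.13 (SE 0.37) and -1.28 (SE 0.42), with limma adjusted p of 0.767 and 0.777. Cdkn2a, which encodes p16 and ARF, had 1.65 (SE 0.65), with its highest values of 8.34, 3.67 and 3.62 FPKM in the lymphoid-rich SF_ConD 1, SF_ConD 4 and SF_HPD 5 and 0 FPKM in 4 other libraries.

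Counting limits bear on the low members. In all, 7 members overlap a kept gene on the other strand (Ccna2, Ccne2, Nusap1, Kif20a, Cdc20, Mcm7 and Cdc45), and 4 have named pseudogenes (Ccnb2, Ccnb1, Pcna and Tyms), so their values may include or lose reads of those genes. Rescaling each library to TPM moved the median of all genes from -0.03 to 0.16 in SF_ConD against SC_ConD and from 0.02 to 0.25 in SF_HPD against SC_ConD, and that of the kept members from 0.71 to 1.04 and from 0.49 to 0.86.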

How the data were processed

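Total RNA from 13 mice in 3 groups was sequenced. The authors deposited 1 table of FPKM per gene with its coordinates. The tools in the submitters' processing notes are featureCounts 1.5.0-p3, HISAT2 2.0.5 and CASAVA, and the build there is mm8, but the coordinates match GRCm38: 53499 of 54409 identifiers found in GENCODE M21 had the same start and end. The sources used here do not give the strand setting.

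FPKM times gene length, in units of each library's smallest step, came out whole for 100% of values (tolerance 0.05), which gave 14815592 to 18303302 reads per library. The divisor in the deposited FPKM was 0.479 to 1.23 times that total, for a reason not given. No pair of libraries agreed within sampling noise (lowest chi-square per degree of freedom 71.0).

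Group means of log2(FPKM + 1) over all 13 libraries were fitted with limma 3.58.1 (R 4.3.3), trended and robust eBayes, on genes that reached an FPKM of 1 in 3 or more libraries. Tests were two-sided, and p-values were adjusted by Benjamini-Hochberg across the 14421 genes, with a threshold of 0.05. Fold changes on this scale understate those of low genes. The steps were tested on simulated data. Between SC_ConD and SF_HPD, same-numbered libraries deviated together (correlations across genes of 0.711, 0.333 and 0.191). In the other comparisons the correlations had both signs. They were -0.558, 0.190 and -0.316 between SC_ConD and SF_ConD, and ran from -0.670 to 0.405 between SF_ConD and SF_HPD. The block is given where it moved a count by over 1.5 times. The labels describe individual mice and name no source of a pairing.

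The members and lists were chosen with earlier results of these data known. Members given by library were the 2 kept ones with the smallest p per role in SF_ConD against SC_ConD (fork and nucleotide genes as 1 role), plus Ccnb2, Mki67, Top2a and Pcna, along with Aurka and Cenpf, added after their values were seen; up to 3 genes of each other list were named by smallest p. Promoter windows and motifs were read from RefSeq on GRCm38.p6. Alternatives were another pseudocount (0.1), 2 other filters, TPM and median-of-ratios scaling, other fits, limma-voom on recovered reads, covariates, and fits without single libraries or sets of them.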

Additional observations from a re-analysis of the deposited data

Results flagged for a closer look

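Of 30 sets of 5 values examined in SF_ConD and SF_HPD, 2 held an outlying value, both times that of SF_HPD 2. Chance marks about 1 in 20, so 2 of 30 is near the rate of chance. The 2 are not independent, since Cdc20 is among the 37 genes of the flagged mean. The mean log2(FPKM + 1) of SF_HPD 2 over the 37 division genes was 0.754, while the other SF_HPD libraries lay between 1.25 and 1.43. The gap took 0.738 of the whole range (limit 0.71). Cdc20, the activator of the anaphase-promoting complex, was at 0.680 FPKM there and at 2.21 to 2.96 FPKM in the others. Its gap took 0.757 of the range as log2(FPKM + 1), the scale used for all these values, and stayed under the limit as FPKM. The same library had the lowest adipocyte marker mean, 4.73, and 11 of 14 B cell and lymph node markers at 0. Their part in its low division genes was not tested. Tyms was the exception among nucleotide enzymes, with its highest value of all libraries, 8.75 FPKM, in SF_HPD 2.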

How the results depend on the processing

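Of 27 alternatives, 13 left out 1 library. The count of members called was 0 in each, except for 1 (Ccnb2) in SF_ConD against SC_ConD without the 4 libraries that lean toward long transcripts, a setting chosen after seeing the data, as was the length trend as a covariate. Without these 4 libraries 162 genes were called in SF_ConD against SC_ConD and 172 in SF_HPD against SC_ConD. Of these genes, 157 and 169 were lower in the sleep-fragmented group. Leaving out 1 library gave 0 to 194 genes (without SC_ConD 1) in SF_ConD against SC_ConD, 0 to 1 (without SF_HPD 5) in SF_HPD against SF_ConD and 0 to 196 (without SC_ConD 1) in SF_HPD against SC_ConD, and 0 members in each comparison. The cause was not tested.

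The median fold change of the 28 kept members in SF_ConD against SC_ConD, 0.71, became 1.35 with a pseudocount of 0.1, 1.63 with limma-voom, 0.27 without the lymphoid-rich libraries and 0.26 with the B cell marker mean as covariate. In SF_HPD against SC_ConD, 0.49 became 0.90 with a pseudocount of 0.1, 0.86 as TPM and 1.002 with limma-voom. A smaller pseudocount and limma-voom shrink low values less by construction. Leaving out 1 library gave 0.60 to 0.91, -0.31 to 0.01 and 0.42 to 0.64 in SF_ConD against SC_ConD, between the diets and in SF_HPD against SC_ConD. Without the 4 libraries that lean toward long transcripts the median between the diets went from -0.14 to -0.43, with 4 of 28 positive. With the replicate block the medians were 0.60, -0.14 and 0.33 and 0 members were called. Of 42 fold changes of named members, 19 changed sign under some alternative. On the recovered reads limma-voom was run, and the planned edgeR test was not run. The 3 SC_ConD mice and the few reads of low members limit the precision.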
